A study of Mus musculus with 6 samples.

Results

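The subject is 60 mouse genes that carry newly made proteins into the endoplasmic reticulum (ER), attach sugars to them, fold them and ship them to the Golgi. They were chosen by symbol for these known roles, with earlier results of these data known. All 60 were among the 12830 genes of the deposited count table. By step they are 17 genes of translocation, 6 of N-glycosylation, 14 of folding, 5 of stress sensing, 11 of the COPII coat and 7 of cargo receptors and retrieval. The data are RNA sequencing of primary bone marrow stromal cells (BMSCs), adherent marrow cells that can form osteoblasts, kept for 2 days under osteogenic induction. The 3 control libraries (FF 1, FF 2 and FF 3) came from Rras2f/f mice, and the 3 others (cKO 1, cKO 2 and cKO 3) came from Prx1;Rras2f/f mice, all 8 weeks old. Both groups therefore carried the floxed allele of Rras2, a gene of the Ras family of small GTPases. The Prx1 promoter is active in limb mesenchyme and not in the blood lineage, whose cells also grow in such cultures. Nothing in the labels ties each library to its own animal, and p-values then describe only how far these libraries spread, which may be technical.

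A secreted protein enters the ER as it is made. The signal recognition particle brings the ribosome to its receptor, the Sec61 channel passes the chain through the membrane, signal peptidase trims it and oligosaccharyltransferase adds N-linked glycans. Chaperones of the ER lumen fold the chain, COPII coats bud vesicles from ER exit sites, and KDEL receptors return escaped chaperones from the Golgi. When unfolded chains build up, the sensors IRE1, PERK and ATF6 raise the supply of chaperones. Osteoblasts put a heavy load on this route because they secrete type I procollagen, whose rigid rods are too long for a standard COPII vesicle.

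In cKO, 7 of the 60 genes fell and 0 rose, by edgeR's quasi-likelihood test at an adjusted p below 0.05 (Benjamini-Hochberg over all 12830 genes). The 7 were Kdelr3, Lman1, Sec31a, Sec24d, Rpn1, Ddost and Sec61a1, and their falls were small, from 1.12-fold to 1.32-fold. They sit in the channel (1 of 17 translocation genes), the glycosylation enzyme (2 of 6), the COPII coat (2 of 11) and the receptors (2 of 7). None of the 14 folding genes and none of the 5 stress sensing genes passed: the smallest edgeR adjusted p were 0.328 and 0.326, 0 genes in either step had an unadjusted p below 0.05, and DESeq2 and limma-voom also called 0. The 7 falls are 11.7% of the members, beside 2.74% of all tested genes called lower, 2.1% called higher and 4.84% called in either direction. Without regard to the test, the 3 cKO libraries all lay below the 3 FF libraries for 16 members, or 26.7%, beside 11.2% of all genes. They all lay above for 2 members, Sec62 and Spcs1, beside 11.3% of all genes, which makes 18 members without overlap (30.0%) beside 22.5% of all genes. The median log2 fold change was -0.02 over the members and 0.00058 over all genes.

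**Figure D1:**
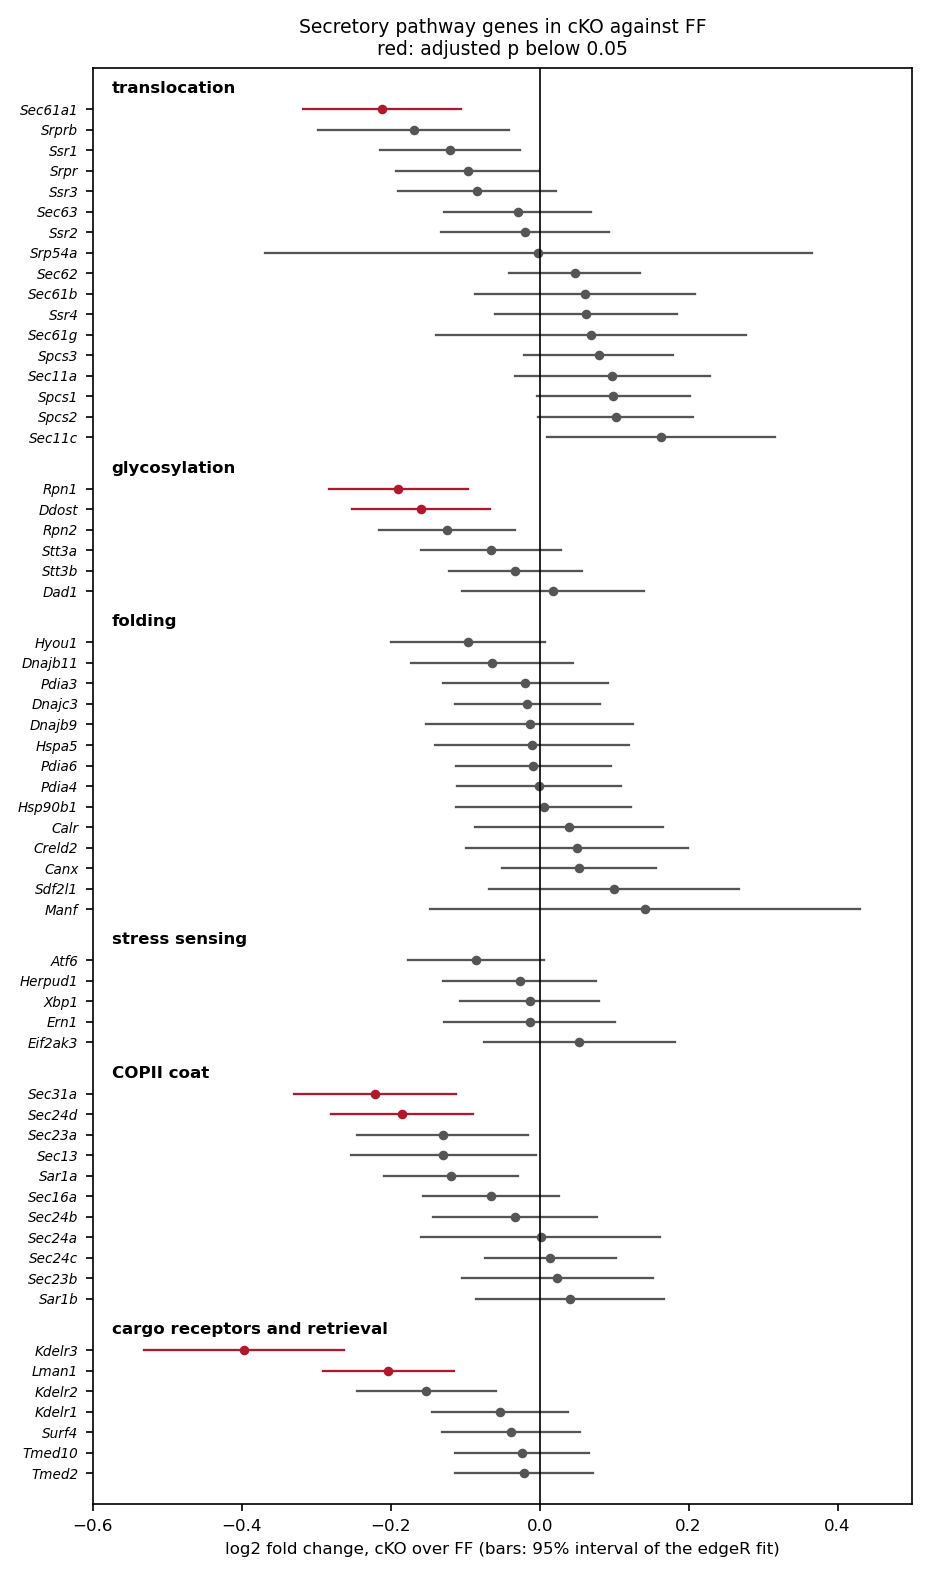
Log2 fold change of each of the 60 genes, cKO over FF, with the 95% interval of the edgeR fit, grouped by step; red marks an adjusted p below 0.05. The 7 red genes all lie left of 0, and the 14 folding genes run from -0.10 to 0.14.

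With all 6 libraries the number of falling members varied little with the method. It was 7 with RLE factors (2.77% of all genes called lower), 6 with upper-quartile factors (2.64%), 6 with library totals alone (2.67%), 7 among genes of at least 5 CPM (2.88%), 8 with DESeq2 (3.85%) and 6 with limma-voom (2.9%). Single libraries moved it more. Leaving out FF 1, FF 2 or FF 3 left 2, 1 or 4 falls, where 1.64%, 1.25% or 1.69% of all genes were called lower. Leaving out cKO 1, cKO 2 or cKO 3 gave 8, 3 or 1 falls, where the share over all genes was 4.92%, 1.55% or 1.61%. The authors' deposited table had 8 members lower, the 7 above and Kdelr2, and 0 higher at its adjusted p below 0.05, beside 3.85% of all genes lower.

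Rras2, the targeted gene, had 49.7, 50.1 and 44.7 CPM (counts scaled to library size with TMM factors) in FF 1, FF 2 and FF 3 and 26.7, 29.0 and 26.8 CPM in cKO 1, cKO 2 and cKO 3. The groups did not overlap (log2 fold change -0.81 ± 0.0683 SE, edgeR adjusted p = 1.08e-05). The 10 stroma markers summed to 5984 to 6148 CPM in FF and 7052 to 7519.6 CPM in cKO, with 3 rises and 0 falls. Among them Cxcl12 alone went from 3483 ± 98.8 CPM to 4838 ± 178 CPM, while 5 of the 10 had negative log2 fold changes, and the median was 0.03. Without overlap between groups, 3 lay lower in cKO (Prrx1, Eng and Col3a1) and 4 lay higher, beside 11.2% and 11.3% of all genes. Markers of blood cells were abundant too. The 15 macrophage markers summed to 25808 to 27133 CPM in FF and 28019 to 29043 CPM in cKO, with 2 rises and 1 fall, and Ptprc, the pan-leukocyte marker, had 336 ± 8.57 CPM and 347 ± 13.7 CPM (SD, n = 3). The 12 osteoblast markers summed to 22121 to 23659 CPM in FF and 15359 to 17875 CPM in cKO. Of the 12, 5 fell, among them Runx2 and Col1a1 (log2 fold changes -0.25 and -0.59). For 11 of the 12 the cKO libraries lay lower without overlap, beside 11.2% of all genes. Plasma cells also load the secretory route heavily, and 11 of 16 plasma cell markers were measured. Their sums were 356 to 382 CPM in FF and 489 to 569 CPM in cKO, with 5 rises, all of them Jchain or immunoglobulin genes, and 1 fall. The 9 neutrophil markers summed to 651 to 860.4 CPM in FF and 565 to 755 CPM in cKO and the 7 endothelial markers to 45.0 to 59.99 CPM in FF and 41.5 to 52.0 CPM in cKO, with 0 calls in either list (1 and 2 genes had an unadjusted p below 0.05). Mzb1, Tnfrsf17, Pou2af1, Cd79a and Eaf2 were not in the table. Beside the calls in these marker lists, 2.74% of all tested genes were called lower and 2.1% higher. In bulk RNA, fewer cells of a type and less RNA per cell cannot be told apart, and the part of these marker shifts in the results below was not tested.

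Levels per gene length ran from 6.38 FPKM (Sec24a) to 437 FPKM (Calr) as means over the 6 libraries, in the authors' length-scaled unit. Lumenal chaperones headed the order. Calr, a lectin chaperone, was followed by Hsp90b1 at 320.2 FPKM, the disulfide isomerase Pdia3 at 272 FPKM and Hspa5, the gene of the chaperone BiP, at 259 FPKM. Calr lay above Hsp90b1 in every library, whereas the ranges of Pdia3 and Hspa5 overlapped. The translocon component Ssr3 (156 FPKM) and the lectin chaperone Canx (153 FPKM) also overlapped. The stress sensors Ern1 and Eif2ak3 were near the bottom at 7.36 and 8.47 FPKM. The 7 genes that fell held middle levels, from 26.9 FPKM for Kdelr3 to 83.6 FPKM for Ddost.

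Among the 17 translocation genes the channel-forming subunit was the only one to pass the test. Sec61a1, the pore of the Sec61 complex, had 235, 229 and 227 CPM in FF and 212, 199 and 186 CPM in cKO. The groups did not overlap, with cKO 3 the lowest (log2 fold change -0.21 ± 0.0497 SE, edgeR adjusted p = 0.0240). The adjusted p of Sec61a1 was 0.0914, 0.104, 0.0709, 0.0878 and 0.119 on leaving out FF 1, FF 2, FF 3, cKO 2 and cKO 3 in turn. The gene (ENSMUSG00000030082) is protein-coding and spans chr6:88503579-88518905 on the minus strand of mm10. An antisense gene on the other strand shares 549 of its 6732 exon bases, and whether the counting used strand is not stated in the labels. Its small partners in the channel, Sec61b and Sec61g, had log2 fold changes of 0.06 and 0.07 with 95% intervals of -0.09 to 0.21 and -0.14 to 0.28. The count ratio of Sec61a1 to Sec61b was 4.39, 4.40 and 4.35 in FF and 4.35, 3.41 and 3.23 in cKO. There cKO 1 lay among the FF libraries (exact two-sided permutation test p = 0.2, n = 3 against 3, 0.275 adjusted over the 11 ratios compared, which were chosen after the values were seen).

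Genes that bring the ribosome to the membrane or surround the channel had mostly negative log2 fold changes and did not pass. Srprb, a subunit of the receptor of the signal recognition particle, had 60.3, 66.1 and 59.8 CPM in FF and 53.6, 57.8 and 54.2 CPM in cKO, without overlap (log2 fold change -0.17, edgeR adjusted p = 0.145). Its partner Srpr had 152, 143 and 148 CPM and 143, 137 and 134 CPM (-0.10, adjusted p = 0.284). The translocon-associated protein complex sits beside the channel. Its subunit Ssr1 had 229, 239 and 241 CPM in FF and 211, 227 and 215 CPM in cKO, without overlap (-0.12, adjusted p = 0.158). Ssr3, the most abundant of the 17 per length, had 521, 521 and 510.3 CPM and 452, 509 and 503 CPM, with all cKO libraries lower and cKO 1 the farthest (adjusted p = 0.425). The other subunits, Ssr2 and Ssr4, had log2 fold changes of -0.02 and 0.06.

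The 5 signal peptidase genes had positive log2 fold changes, and 0 passed (1 had an unadjusted p below 0.05, and DESeq2 and limma-voom called 0 higher). Spcs1, Spcs2, Spcs3, Sec11a and Sec11c were at 0.10, 0.10, 0.08, 0.10 and 0.16. Sec11c, a catalytic subunit, had 32.3, 28.5 and 30.3 CPM in FF and 32.1, 33.6 and 36.3 CPM in cKO, which overlap through cKO 1 (adjusted p = 0.249). Spcs1, an accessory subunit, had 92.9, 94.2 and 92.9 CPM in FF and 94.8, 103 and 102 CPM in cKO. Sec62, which helps short chains enter after synthesis, had 182, 182 and 181 CPM and 186, 184 and 193 CPM. In both every cKO library was above every FF library, and the adjusted p were 0.312 and 0.621. Sec63, the partner of Sec62, had a log2 fold change of -0.03.

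Srp54a, a subunit of the signal recognition particle, had the widest interval of all 60 genes, -0.37 to 0.37. It had 91.0, 88.1 and 77.9 CPM in FF and 70.4, 99.0 and 87.3 CPM in cKO. Mouse carries the near-identical copies Srp54b and Srp54c, so reads can be split among the 3 and the single values are uncertain. The sum over the 3 copies was 275, 274 and 272 CPM in FF and 263, 281 and 274 CPM in cKO, a tighter range than that of Srp54a alone.

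Of the 6 glycosylation genes 2 fell and 5 had negative log2 fold changes, with a median of -0.10. The oligosaccharyltransferase moves a finished glycan from its lipid carrier onto the growing chain. Rpn1, its ribophorin I subunit, had 234, 228 and 222 CPM in FF and 206, 193 and 201 CPM in cKO. All 3 cKO libraries were lower (log2 fold change -0.19 ± 0.0435 SE, edgeR adjusted p = 0.0212). The adjusted p of Rpn1 was 0.102, 0.110, 0.0974 and 0.0617 on leaving out FF 1, FF 2, cKO 2 and cKO 3 in turn. Ddost, a further subunit without the active site, had 211, 203 and 202 CPM in FF and 187, 187 and 177 CPM in cKO. Again the groups did not overlap, and the call lay at the threshold (log2 fold change -0.16 ± 0.0432 SE, edgeR adjusted p = 0.0496). It ended with upper-quartile factors, library totals alone and limma-voom, at adjusted p of 0.0521, 0.0505 and 0.0532. The adjusted p of Ddost was 0.192, 0.165, 0.111, 0.0959 and 0.222 on leaving out FF 1, FF 2, FF 3, cKO 2 and cKO 3 in turn. Rpn1 (ENSMUSG00000030062) spans chr6:88084482-88105304 on the plus strand and shares 131 of its 4512 exon bases with a microRNA gene on the other strand. Ddost (ENSMUSG00000028757) spans chr4:138304730-138312628 on the plus strand.

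Rpn2, the ribophorin II subunit and the most abundant of the 6 per length, had 372, 358 and 354 CPM in FF and 338, 336 and 321 CPM in cKO. It separated the groups and did not pass (edgeR adjusted p = 0.129, and 0.0470 on leaving out cKO 1). The catalytic subunits did not pass either. Stt3a, which acts on chains as they enter, had 285, 277 and 281 CPM in FF and 259, 265 and 281 CPM in cKO (adjusted p = 0.499). Stt3b, which acts on sites that were skipped, had 182, 186 and 186 CPM and 178, 186 and 177 CPM (adjusted p = 0.758). Both overlap between groups, with 95% intervals of -0.16 to 0.03 and -0.12 to 0.06. The small subunit Dad1 had a log2 fold change of 0.02.

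**Figure D2:**
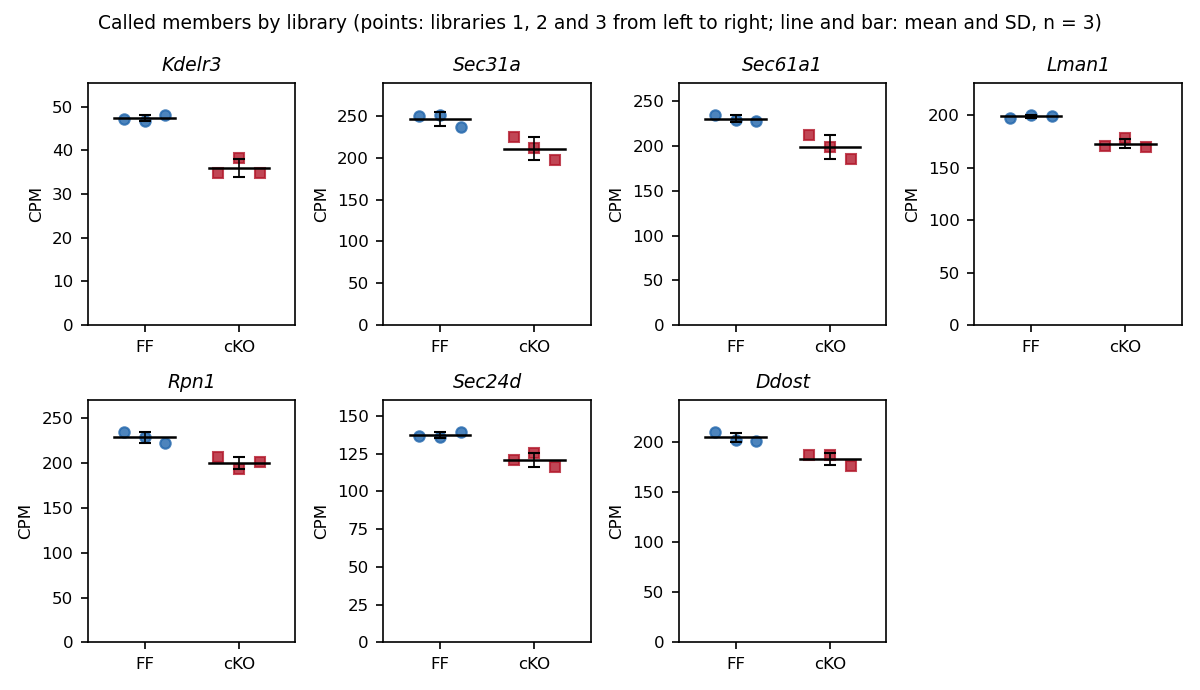
CPM of the 7 genes with an adjusted p below 0.05, 1 panel each, with the libraries as points and the mean and SD of each group (n = 3) as a line and bar, on axes that start at 0. In each panel the 3 cKO libraries lie below the 3 FF libraries, and the distance is small next to the level.

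No gene among the 14 chosen for folding passed the test. Folding genes outside this set did fall, among them Serpinh1 and Fkbp10, which are described further below. The median log2 fold change of the 14 folding genes was -0.00465, and the range was -0.10 (Hyou1) to 0.14 (Manf). The 95% interval lay within a 1.2-fold change in either direction for 12 of the 14, the exceptions being Sdf2l1 (-0.07 to 0.27) and Manf (-0.15 to 0.43). Calr had 1112, 1039 and 950.5 CPM in FF and 1016, 1054 and 1118 CPM in cKO (95% interval -0.09 to 0.17). Hspa5 had 864, 781 and 724 CPM in FF and 756, 779.6 and 816 CPM in cKO (95% interval -0.14 to 0.12). In both genes the FF libraries spread over a wider range than the distance between the group means. Hsp90b1, the ER form of HSP90, had 1031, 996 and 945 CPM and 933, 985 and 1066 CPM (95% interval -0.11 to 0.12).

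Hyou1, an exchange factor of BiP, had 131, 125 and 119.9 CPM in FF and 119.7, 112 and 119 CPM in cKO. It was the only folding gene whose groups did not overlap (edgeR adjusted p = 0.328). Sdf2l1, a partner of BiP cochaperones, had 54.0, 45.4 and 44.7 CPM in FF and 48.3, 51.0 and 55.0 CPM in cKO (adjusted p = 0.576). Dnajb11, a cochaperone of BiP, had 121, 115 and 109 CPM and 106, 109 and 115 CPM (adjusted p = 0.580). Manf, a stress-induced factor of the ER lumen, had 130.4, 124 and 116 CPM in FF and 118, 133 and 158 CPM in cKO, with cKO 3 the highest (adjusted p = 0.619). In the authors' FPKM, Manf had the opposite order of means, 65.2 ± 5.99 FPKM in FF and 60.5 ± 10.1 FPKM in cKO (SD, n = 3). It overlaps 4 annotated genes, Rbm15b on the same strand among them, so its value is uncertain. The disulfide isomerases Pdia3, Pdia4 and Pdia6 had log2 fold changes of -0.02, -0.00061 and -0.01. Those of Hsp90b1, Canx, Dnajb9, Dnajc3 and Creld2 ran from -0.02 to 0.05.

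Folding genes ranked the libraries of a group in much the same way. FF 1 was the highest FF library for 11 of the 14 and FF 3 the lowest for 13. cKO 1 was the lowest cKO library for 13 and cKO 3 the highest for 10. Relative to the FF mean, the median log2 level of the 14 genes was 0.06, 0.01 and -0.07 in FF 1, FF 2 and FF 3, and -0.07, 0.03 and 0.05 in the cKO libraries, so the groups overlapped widely. The 6 glycosylation genes had medians of 0.03, -0.01 and -0.03 in FF and -0.11, -0.10 and -0.11 in cKO, where all 3 cKO libraries lay below all FF libraries. The 17 translocation genes were low in cKO 1, at -0.09, beside 0.08 and 0.09 in cKO 2 and cKO 3. Over all 60 genes cKO 1 was the lowest cKO library for 40.

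**Figure D3:**
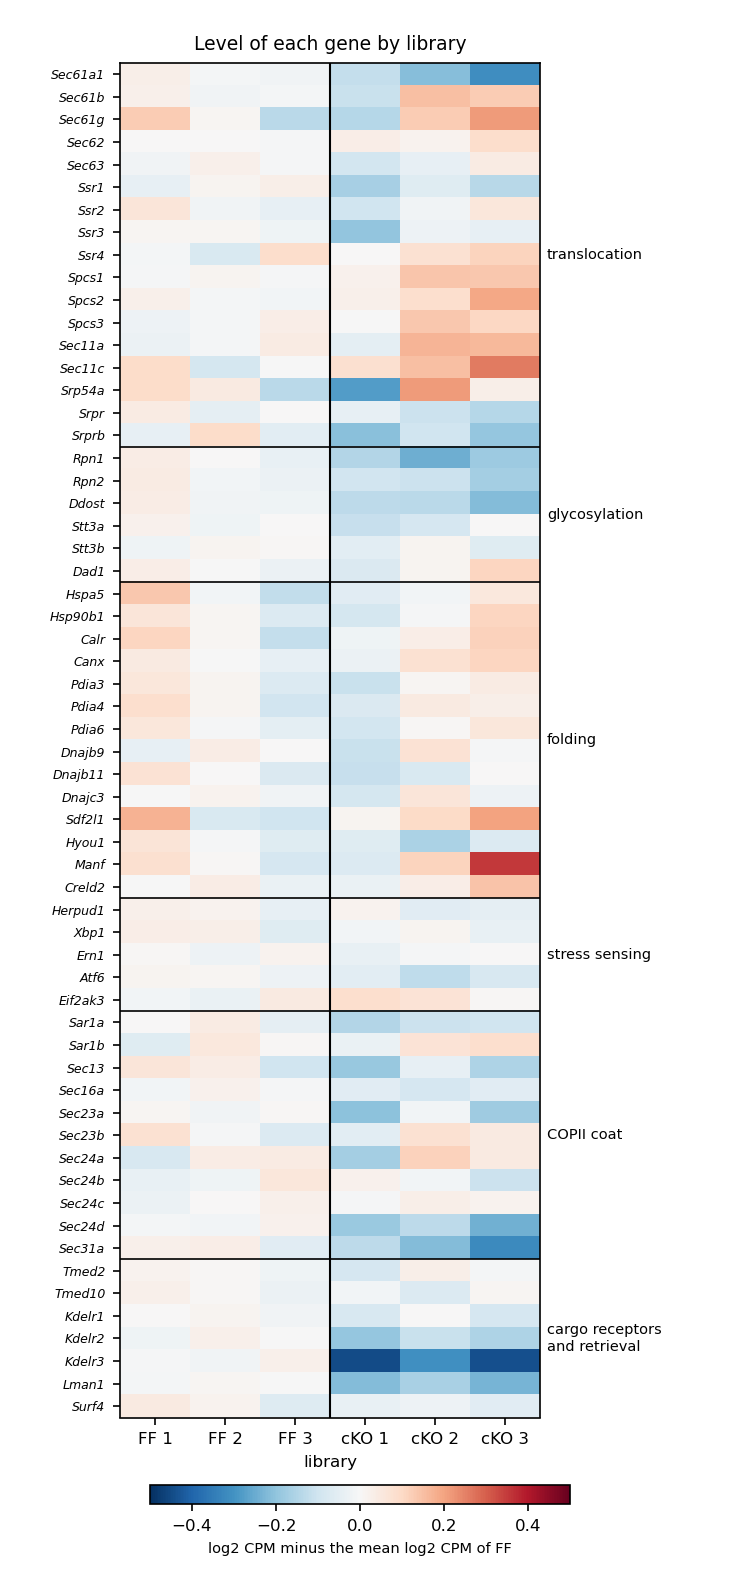
Level of each of the 60 genes (rows, by step) in each of the 6 libraries (columns), as log2 CPM minus the mean log2 CPM of FF; blue is lower and red higher. Kdelr3 and Lman1 are blue in all 3 cKO libraries, and most folding genes are red in FF 1 and blue in FF 3 and cKO 1.

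Promoters of 7 of the 12 folding genes searched carry letters known to bind the stress transcription factors. RefSeq gave a promoter on GRCm38.p6 for 50 of the 60 genes. The 250 bases before each RefSeq start were searched on both strands for the ER stress element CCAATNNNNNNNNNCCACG, the related element ATTGGNCCACG, and TGACGTG, a core that XBP1, ATF6 and the CREB3 family can bind. The first motif stood in 7 of the 12 folding genes with an entry and in 0 of the 38 other members, beside 0.13% of all 27025 genes with an entry. The second stood in Herpud1 alone among the members, beside 0.037% of all genes with an entry. The third stood in 4 members, or 8%, beside 1.85% of all genes with an entry. A match describes the letters, and binding was not measured. The motifs are known elements of ER stress genes, and the members were chosen for known ER roles. The shares beside all genes therefore describe these promoters and test nothing. Matches of the first motif are shown because among the members they stood in folding genes alone, with the fixed letters in capitals, 5′ to 3′ on the strand of the motif.
Hspa5: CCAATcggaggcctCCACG
Calr: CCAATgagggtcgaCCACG
Hsp90b1 (site 1): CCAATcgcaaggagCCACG
Hsp90b1 (site 2): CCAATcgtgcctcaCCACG
Canx: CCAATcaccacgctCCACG
Pdia6: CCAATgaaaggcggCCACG
Dnajc3: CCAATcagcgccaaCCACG
Creld2: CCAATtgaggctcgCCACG

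The third motif joined members that fell with members that did not pass. Kdelr3 and Sec24d fell, and Srpr and Hspa5 did not pass the test. Their matches are shown with 6 bases on either side, the motif in capitals, on the strand of the motif, which for Kdelr3 is opposite to the gene. They lie 23 to 29 bases before the RefSeq start in Kdelr3, 20 to 26 in Sec24d, 7 to 13 in Srpr and 151 to 157 in Hspa5.
Kdelr3: gcgcggTGACGTGgcgggg
Sec24d: ggcgccTGACGTGgcacta
Srpr: ctggtgTGACGTGtcccgc
Hspa5: tagcaaTGACGTGagttgc

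Of the 7 genes that fell, 5 had a promoter entry. In these windows Rpn1, Ddost and Sec31a had 0 matches of the 3 motifs.

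None of the 5 stress sensing genes passed, and all 5 intervals lay within a 1.2-fold change. Xbp1, the transcription factor whose mRNA is spliced by IRE1 and the most abundant of the 5 per length, had 151, 151 and 141 CPM in FF and 146, 149 and 144 CPM in cKO (edgeR adjusted p = 0.917). Gene counts do not show its splicing. Ern1, the IRE1 gene, had 55.2, 54.0 and 55.5 CPM in FF and 53.5, 54.7 and 55.0 CPM in cKO (adjusted p = 0.935). Eif2ak3, the PERK gene, had 40.6, 40.1 and 42.3 CPM and 43.4, 43.0 and 41.1 CPM (adjusted p = 0.722). These 3 overlap between groups, with 95% intervals of -0.11 to 0.08, -0.13 to 0.10 and -0.08 to 0.18.

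Atf6, the sensor that is itself cut into a transcription factor, had 139, 139 and 135 CPM in FF and 133, 126 and 131 CPM in cKO. Its groups did not overlap, and it did not pass (edgeR adjusted p = 0.326, 95% interval -0.18 to 0.01). Herpud1, a stress-induced membrane protein of ER-associated degradation, had 84.6, 84.3 and 80.9 CPM in FF and 84.3, 80.1 and 80.8 CPM in cKO, which overlap (adjusted p = 0.834).

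In the COPII coat an outer cage gene and 1 of the 4 Sec24 genes fell. Sec31a, whose protein forms the cage together with Sec13, had 249.8, 251 and 236 CPM in FF and 224, 211 and 197 CPM in cKO. The groups did not overlap (log2 fold change -0.22 ± 0.0507 SE, edgeR adjusted p = 0.0212). The adjusted p of Sec31a was 0.0778, 0.133, 0.0795 and 0.107 on leaving out FF 1, FF 2, cKO 2 and cKO 3 in turn. Sec24d, an inner-coat adaptor that binds cargo, had 137, 136 and 139.5 CPM in FF and 121, 125 and 116 CPM in cKO. It too separated the groups (log2 fold change -0.18 ± 0.0445 SE, edgeR adjusted p = 0.0280). The adjusted p of Sec24d was 0.0696, 0.113, 0.116 and 0.134 on leaving out FF 1, FF 2, FF 3 and cKO 3 in turn. Sec31a (ENSMUSG00000035325) spans chr5:100361649-100416234 on the minus strand, and Sec24d (ENSMUSG00000039234) spans chr3:123267455-123365641 on the plus strand, with 0 overlapping genes for each in GENCODE M21.

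The Sec24 paralogs bind overlapping sets of cargo signals. Sec24a, Sec24b and Sec24c had log2 fold changes of 0.0011, -0.03 and 0.01, with 95% intervals of -0.16 to 0.16, -0.14 to 0.08 and -0.07 to 0.10. Sec24d made up 37.9, 37.0 and 37.1% of the summed Sec24 FPKM in FF and 34.6, 34.9 and 33.9% in cKO. Sec24c made up 36.1, 36.7 and 36.0% in FF and 38.1, 38.0 and 39.4% in cKO. In FPKM, Sec24d was thus the leading form in each FF library and Sec24c in each cKO library, by small margins. This order depends on the length scaling, since in counts Sec24c lay above Sec24d in all 6 libraries. The count ratio of Sec24d to Sec24c was 0.941, 0.916 and 0.924 in FF and 0.818, 0.830 and 0.774 in cKO (exact two-sided permutation test p = 0.1, n = 3 against 3, 0.157 adjusted over the 11 ratios). That is the smallest p that 3 against 3 allows. The ratio of Sec24d to Sec24b also separated the groups (1.62, 1.59 and 1.55 in FF, 1.37, 1.46 and 1.45 in cKO). The ratio of Sec24d to Sec24a overlapped between them, at 3.21, 2.95 and 3.01 in FF and 3.02, 2.57 and 2.504 in cKO (exact permutation p = 0.3, 0.33 adjusted). So did that of Sec31a to Sec13, at 2.83, 2.89 and 2.99 in FF and 3.02, 2.57 and 2.59 in cKO (exact permutation p = 0.4, 0.4 adjusted).

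Among the other coat genes 3 had an unadjusted p below 0.05 and did not pass. Sar1a, the GTPase that starts coat assembly and the most abundant of the 11 per length, had 227, 233 and 219.9 CPM in FF and 205, 210.4 and 211 CPM in cKO, without overlap (edgeR adjusted p = 0.144). Sec13 had 88.3, 87.0 and 79.0 CPM in FF and 74.2, 82.4 and 76.0 CPM in cKO (adjusted p = 0.260). Sec23a, the inner-coat subunit that activates the GTPase, had 107, 105 and 107 CPM and 92.4, 106 and 94.2 CPM (adjusted p = 0.217). Sec13 and Sec23a overlap between groups. Sec16a, which organises ER exit sites, and the paralogs Sec23b and Sar1b had log2 fold changes of -0.07, 0.02 and 0.04.

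Among cargo receptors, Kdelr3 showed the largest log2 fold change of all 60 genes, and it was the only one of the 7 calls to hold under all 14 alternative settings. Kdelr3 encodes a receptor that binds the KDEL tail of escaped ER residents in the Golgi and returns them. It had 47.1, 46.8 and 48.2 CPM in FF and 34.7, 38.3 and 34.9 CPM in cKO. The groups were well apart (log2 fold change -0.40 ± 0.0627 SE, edgeR adjusted p = 0.00189), a fall of 1.32-fold. Over the alternatives its adjusted p ran from 3.44e-06 to 0.0125. The gene (ENSMUSG00000010830) is protein-coding and spans chr15:79516411-79527739 on the plus strand. It shares 4 exon bases with Ddx17 on the other strand, which had a log2 fold change of 0.01. Its upstream region is shown because it was the firmest call and holds the motif above: the 250 bases before the RefSeq start (chr15:79516158-79516407, plus strand, GRCm38.p6), read on the strand of the gene, with the reverse complement of TGACGTG in capitals.
Kdelr3: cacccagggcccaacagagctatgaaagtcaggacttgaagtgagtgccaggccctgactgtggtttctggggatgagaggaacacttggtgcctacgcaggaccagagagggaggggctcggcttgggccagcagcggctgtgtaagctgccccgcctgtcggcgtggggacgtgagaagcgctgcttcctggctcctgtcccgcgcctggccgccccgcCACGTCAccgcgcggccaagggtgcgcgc

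Neither of the other KDEL receptors passed in edgeR. Kdelr2 had 126, 130.4 and 128 CPM in FF and 112, 119 and 115 CPM in cKO, without overlap (log2 fold change -0.15, edgeR adjusted p = 0.0649, DESeq2 adjusted p = 0.0477). Kdelr1, the most abundant of the 3 per length, had 147, 148 and 145 CPM in FF and 139, 147 and 139 CPM in cKO, which overlap (adjusted p = 0.587, 95% interval -0.14 to 0.04). Kdelr3 made up 16.8, 16.5 and 17.2% of the summed FPKM of the 3 receptors in FF and 13.9, 14.5 and 13.8% in cKO. The share of Kdelr1 was 48.4, 48.0 and 47.6% in FF and 51.3, 50.9 and 51.0% in cKO. Both shares separated the groups. Shares of 1 sum depend on each other, and Kdelr1 itself had a log2 fold change of -0.05, so its larger share is not a separate result. The count ratio of Kdelr3 to Kdelr1 was 0.320, 0.316 and 0.332 in FF and 0.250, 0.260 and 0.252 in cKO, without overlap (exact two-sided permutation test p = 0.1, n = 3 against 3, 0.157 adjusted over the 11 ratios). No smaller p is possible with 3 against 3, and the ratio was chosen after the values were seen.

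**Figure D4:**
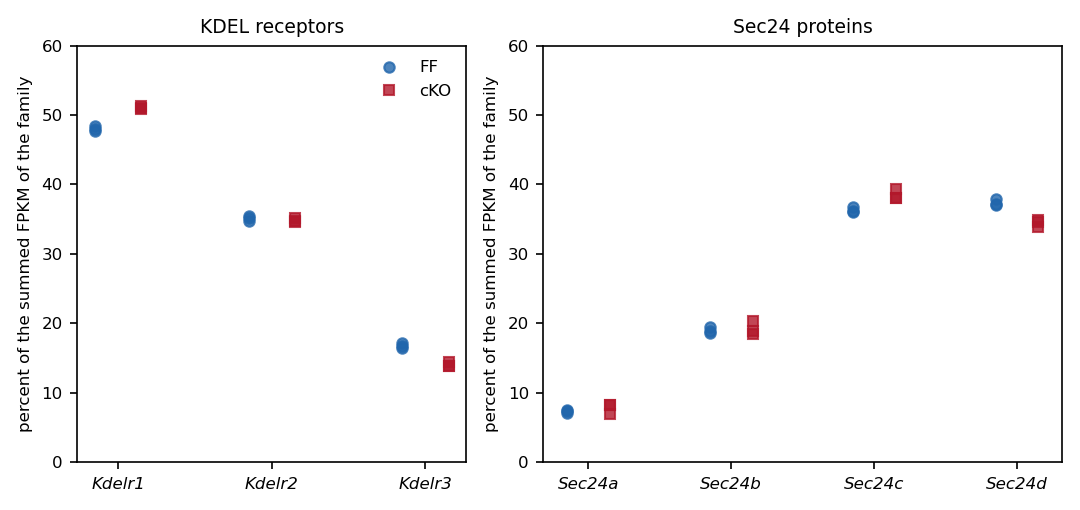
Share of each gene in the summed FPKM of the KDEL receptors (left) and of the Sec24 proteins (right), 1 point per library, FF in blue circles and cKO in red squares. Kdelr3 lies at 16.5 to 17.2% in FF and 13.8 to 14.5% in cKO, and Sec24d also separates the groups.

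Lman1 encodes the mannose lectin ERGIC-53, which escorts glycoproteins out of the ER. It had 197, 200.4 and 199 CPM in FF and 171, 178 and 169 CPM in cKO. Every cKO library was below every FF library (log2 fold change -0.20 ± 0.0412 SE, edgeR adjusted p = 0.0101). The adjusted p of Lman1 was 0.0757 and 0.0518 on leaving out FF 2 and cKO 3 in turn. Tmed10, a cargo receptor of vesicles between ER and Golgi, had the highest mean level per length of the 7 (111 FPKM), and its libraries overlapped those of Tmed2 (109.6 FPKM). Tmed10 had 185, 183 and 178 CPM in FF and 181, 174 and 183 CPM in cKO (adjusted p = 0.836). Surf4, a receptor for soluble cargo, had 327, 321 and 303 CPM and 309, 312 and 305 CPM (adjusted p = 0.714). Both overlap between groups. Tmed2, the partner of Tmed10, had a log2 fold change of -0.02. All 7 genes of receptors and retrieval had negative log2 fold changes, with a median of -0.05.

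Genes of the same route outside the 60 were taken as 6 lists by known role, also with earlier results known. In them 123 genes were measured. Of these 9 fell and 0 rose, or 7.32% lower, beside 2.74% of all tested genes. In the list of other folding and glycan trimming genes 4 of 19 fell, with a median log2 fold change of -0.13. Serpinh1, the collagen chaperone HSP47, had 1119, 1119.9 and 1074 CPM in FF and 914, 959 and 901 CPM in cKO (log2 fold change -0.26 ± 0.0457 SE, edgeR adjusted p = 0.00440). Fkbp10, a prolyl isomerase that works on collagen, had 294, 286 and 277 CPM and 236, 223 and 206 CPM (log2 fold change -0.36 ± 0.0516 SE, edgeR adjusted p = 0.000817). Both separated the groups and were called under all 14 alternative settings. Fkbp9, a further ER prolyl isomerase, had 370.3, 353 and 343 CPM and 314, 317 and 318 CPM (log2 fold change -0.17 ± 0.0430 SE, edgeR adjusted p = 0.0375), and its adjusted p was 0.176, 0.144, 0.0588, 0.106 and 0.106 on leaving out FF 1, FF 2, FF 3, cKO 2 and cKO 3 in turn. Fkbp11, named after its values were seen, had a log2 fold change of -0.50 at an edgeR adjusted p of 0.0377, which was 0.114, 0.107, 0.114, 0.0678 and 0.134 on leaving out FF 1, FF 2, FF 3, cKO 1 and cKO 3 in turn. Fkbp11 is also on the plasma cell list, where the immunoglobulin genes rose.

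Of 16 stress transcription factors and genes of the PERK arm 3 fell, or 18.8%, beside 2.74% of all tested genes. Creb3l1, the gene of OASIS, an ER-bound transcription factor of secretory and collagen genes in osteoblasts, had 113, 109 and 105 CPM in FF and 64.2, 50.7 and 43.0 CPM in cKO. The groups did not overlap (log2 fold change -1.05 ± 0.160 SE, edgeR adjusted p = 0.0375), and its adjusted p was 0.140, 0.130, 0.0969 and 0.157 on leaving out FF 1, FF 2, FF 3 and cKO 2 in turn. Chac1 and Trib3, targets of the PERK arm, were low in level. Chac1 had 7.81, 9.82 and 9.69 CPM and 5.67, 6.65 and 5.12 CPM (log2 fold change -0.65 ± 0.142 SE, edgeR adjusted p = 0.0163), and its adjusted p was 0.105, 0.0765 and 0.0699 on leaving out FF 2, FF 3 and cKO 3 in turn. Trib3 had 12.0, 12.0 and 9.94 CPM and 8.27, 8.30 and 7.52 CPM (log2 fold change -0.50 ± 0.115 SE, edgeR adjusted p = 0.0232), and its adjusted p was 0.0902, 0.129, 0.0666 and 0.0862 on leaving out FF 1, FF 2, cKO 2 and cKO 3 in turn.

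The remaining 4 lists held 2 calls, each lower in cKO, beside 2.74% of all tested genes called lower. Ckap4, an ER sheet protein, had 289, 289 and 269.9 CPM in FF and 236, 228 and 199.5 CPM in cKO (log2 fold change -0.36 ± 0.0589 SE, edgeR adjusted p = 0.00355). It was the only call in the list of 19 other translocon and oligosaccharyltransferase genes, and is itself neither. Sec16b, a paralog of Sec16a at ER exit sites, was the only call among 32 genes of ER exit and Golgi transport (log2 fold change -0.45 ± 0.105 SE, edgeR adjusted p = 0.0246), and its adjusted p was 0.130, 0.107, 0.0604 and 0.0558 on leaving out FF 2, FF 3, cKO 2 and cKO 3 in turn. ER-associated degradation had 0 calls of 20 in edgeR, DESeq2 and limma-voom, with 1 gene at an unadjusted p below 0.05. Its most abundant gene per length, the ATPase Vcp, had a log2 fold change of -0.05. The COPI coat carries the KDEL receptors and their cargo back to the ER. It had 0 calls of 18 in edgeR, with 6 genes at an unadjusted p below 0.05. DESeq2 called 1 COPI gene lower, beside 3.85% of all genes. Of the 18 genes 17 had negative log2 fold changes, with a median of -0.06, beside 6394 negative among all 12830 genes. On leaving out cKO 1 the test called 4 of the 18 lower, beside 4.92% of all genes. The GTPase Arf1, the most abundant COPI gene per length, was at -0.04.

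**Figure D5:**
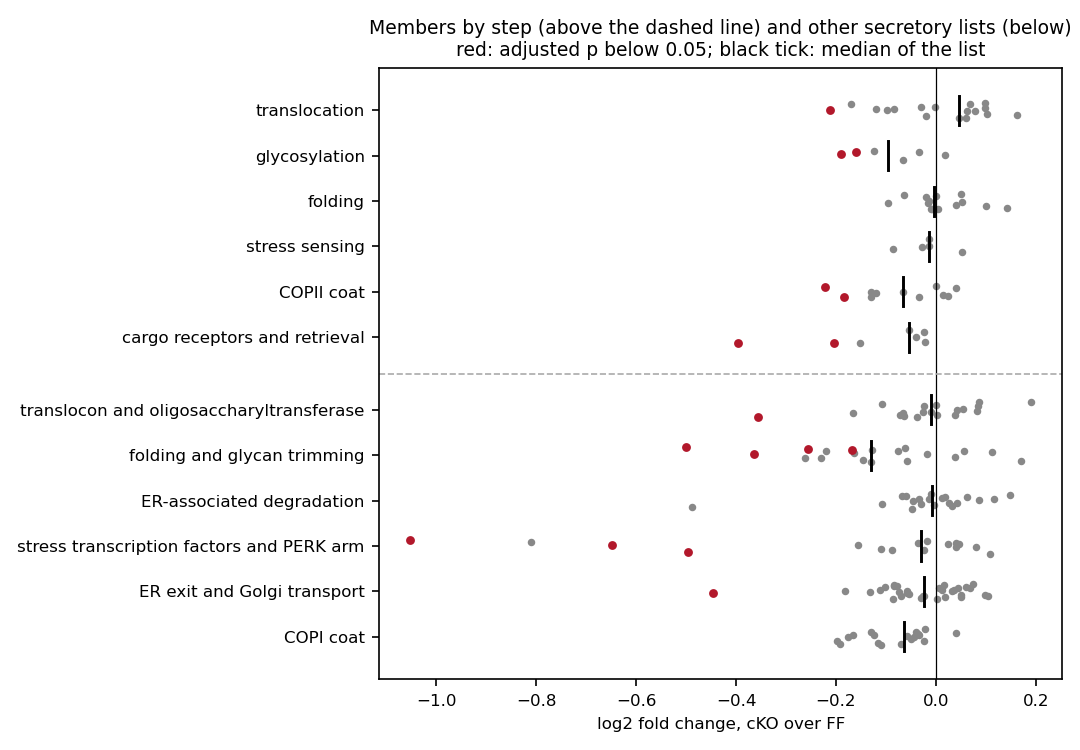
Log2 fold change, cKO over FF, of the 60 genes by step (above the dashed line) and of the 6 other secretory lists (below), 1 point per gene, with the median of each list as a black tick and genes with an adjusted p below 0.05 in red. All red points lie left of 0, with Creb3l1 the farthest at -1.05.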

How the data were processed

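RNA of 6 libraries of mouse bone marrow stromal cells, 3 FF and 3 cKO, was sequenced after stranded mRNA library preparation, per the labels' protocols. The submitters' processing notes name the build mm10. The aligner is not given in the sources used here, nor are the counting tool and strand setting. The authors deposited 1 table of 12830 genes with counts per gene and library and with FPKM values, per the file headers. That the counts are raw was assumed. The deposited log2 fold changes and p-values are the authors' own. Library totals over the listed genes ran from 31934714 to 37561452 counts, and the lowest count of any member in any library was 710. The lowest mean count of a listed gene was 22.3, and genes below that are not analysed here. The labels give no batch, and no 2 libraries of a group agreed within sampling noise.

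All genes were tested in 1 edgeR model (version 4.0.16, R 4.3.3) with TMM factors, filterByExpr, which removed 0 genes, and the robust quasi-likelihood F test without covariates. The standard error is the size of the log2 fold change over the square root of F. The 95% interval uses the t quantile at the total degrees of freedom of that test, residual plus prior (14.3 for most members). The edgeR script was tested on simulated data. Ratios between related genes were compared by exact permutation with scipy 1.17.1. FPKM served for order and shares between genes, with the shares also compared between groups, and for the group means of Manf. No test used FPKM. Coordinates are from GENCODE M21 and promoters from RefSeq. The members and lists were chosen with earlier results of these data known. Values per library are given for every called member, Xbp1, Ern1, Atf6 and Eif2ak3, the gene of highest FPKM in each step and up to 3 uncalled members of smallest p in each step. Of each other list up to 3 called genes of smallest p, or the gene of highest mean FPKM, are named. Further members are named for their role, chosen after their values were seen. Alternatives were other scaling factors, filters, DESeq2 1.42.0, limma-voom (limma 3.58.1), the replicate number as a block and each library left out. Figures were drawn with matplotlib 3.10.9.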

Additional observations from a re-analysis of the deposited data

How the results depend on the processing

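The 7 falls among the members were 6 to 8 under every alternative with all 6 libraries, and 1 to 8 with 1 library left out. Over all genes, the share called lower with 1 library left out ran from 1.25% (without FF 2) to 4.92% (without cKO 1). The counts below move with that share. By step, leaving out 1 library gave 0 to 1 falls in translocation, 0 to 3 in glycosylation, 0 to 2 in the COPII coat and 1 to 2 among cargo receptors. Glycosylation had 1 fall with upper-quartile factors, 1 with library totals alone and 1 with limma-voom. The median log2 fold change of the members ran from -0.0392 to 0.0051 with 1 library left out, each less than 1 SD between replicates (0.0343) from the value with all libraries, -0.0195. In the other lists, leaving out 1 library gave 1 to 2 falls and 0 to 1 rises in the translocon list, which holds Ckap4. It gave 2 to 5 falls in folding and glycan trimming, 0 to 4 among stress transcription factors, 0 to 1 in ER exit and Golgi transport and 0 to 4 in the COPI coat. DESeq2 called 1 gene of the translocon list higher and 1 COPI gene lower, beside 3.85% of all genes called lower. Genes near 0 changed sign with 1 library left out: the log2 fold change of Srp54a ran from -0.1197 to 0.1208, Hspa5 from -0.0688 to 0.0576, Hsp90b1 from -0.0474 to 0.0496, Calr from -0.0166 to 0.0937 and Xbp1 from -0.0435 to 0.0022. The causes were not tested. With the replicate number as a block, 7 members fell, as did 387 of all 12830 genes, and Fkbp11 was no longer called (edgeR adjusted p = 0.0525). The labels do not say whether the numbers pair the samples. Same-numbered libraries had correlations of -0.0359, 0.0913 and -0.0985 in their deviations from the group means. Differently numbered ones ran from -0.188 to 0.207, so these values cannot settle whether samples were paired. The median standard error of 0.0497 on the log2 scale limits what 3 libraries a group resolve.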
